A study of Vanessa cardui with 14 samples.

Results

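In the hind wings of Vanessa cardui, the painted lady butterfly, 15 of 13876 assembled genes (0.108%) were abundant in the last larval instar, low at 72 h and 5 d of the pupa, and abundant again when pigment appeared. They were chosen by their values in the hind wing libraries. Each larval, ommochrome stage and melanin stage library had at least 5 FPKM (fragments scaled to the length of the gene and to the total mapped in the library). Each of these 3 stage means was at least 4 times both the 72 h and the 5 d mean, and the larval mean was at least 0.67 times the ommochrome and melanin means. Their fall and return in hind wings are therefore a description with no test. The 4 forewing libraries played no part in the choice.

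The study measured poly-A RNA in 14 libraries, 2 in each of 7 groups. The forewing groups were black regions and red regions cut from pupal wings. The hind wing groups were whole wings of last instar larvae, of pupae at 72 h and at 5 d after pupation (the latest stage without visible pigment), of pupae beginning to show red and orange ommochromes, and of pupae beginning to show black melanin. All caterpillars were reared under a single light and temperature regime, and the labels name no genetic change or drug. For the forewing pieces the titles give the melanin stage and the treatment protocol gives dissection at the ommochrome stage, so they were set against both hind wing stages. Between the forewing regions colour goes with position, and between the wings the wing goes with the kind of piece (region or whole wing), and neither pair can be told apart. Whether both libraries of a group were made from different animals is not in the labels, and p-values therefore reflect only how these libraries varied, which may be technical.

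A butterfly wing grows inside the caterpillar as an imaginal disc, a folded sheet of dividing epithelium. After pupation the sheet expands, and single cells of it enlarge into scale cells that secrete the cuticle of the scales. Pigments are laid down late, ommochromes from tryptophan and melanins from tyrosine. The deposited table identifies genes only by an assembled component and a gene number, and 0 of its 13876 identifiers matched the RefSeq gene table of the species. No function, sequence or tissue marker could therefore be given for any of the 15 genes. In whole wings, fewer cells of a type and less RNA per cell cannot be told apart.

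Few genes of the table had the pattern. Of the 971 genes that had 5 FPKM or more in both larval libraries and a larval mean at least 4 times both low stage means, 21 (2.16%) were at least 4 times both low stages again at the ommochrome and melanin stages. Those 21 were 10.3% of the 203 genes that met the same conditions at the ommochrome and melanin stages, and 15 of them also met the condition on the larval mean. Of all 13876 genes, 971 met the larval conditions and 203 the pigment stage ones. Both sets were chosen to be low at 72 h and 5 d. Whether they overlapped more or less than these shares alone would give was not tested. Inside the threshold on single libraries, the lowest value was 7.43 FPKM, for c20163_g2, and the nearest gene outside was c21125_g2 at 3.87. At the ratio to the low stages, c26183_g3 lay inside at 4.06 and c23119_g3 outside at 3.80. At the larval ratio, c19608_g1 lay inside at 0.751 and c28000_g3 outside at 0.64. The 15 identifiers came from 15 components. Reads can be divided between similar sequences of a component. Against 34.5% of all genes, 2 of the 15 shared their component with another gene of the table. These were c26183_g3, beside a gene with a larval mean of 17.6 FPKM, and c27122_g1, beside a gene whose means were at most 1.45 FPKM.

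**Figure D1:**
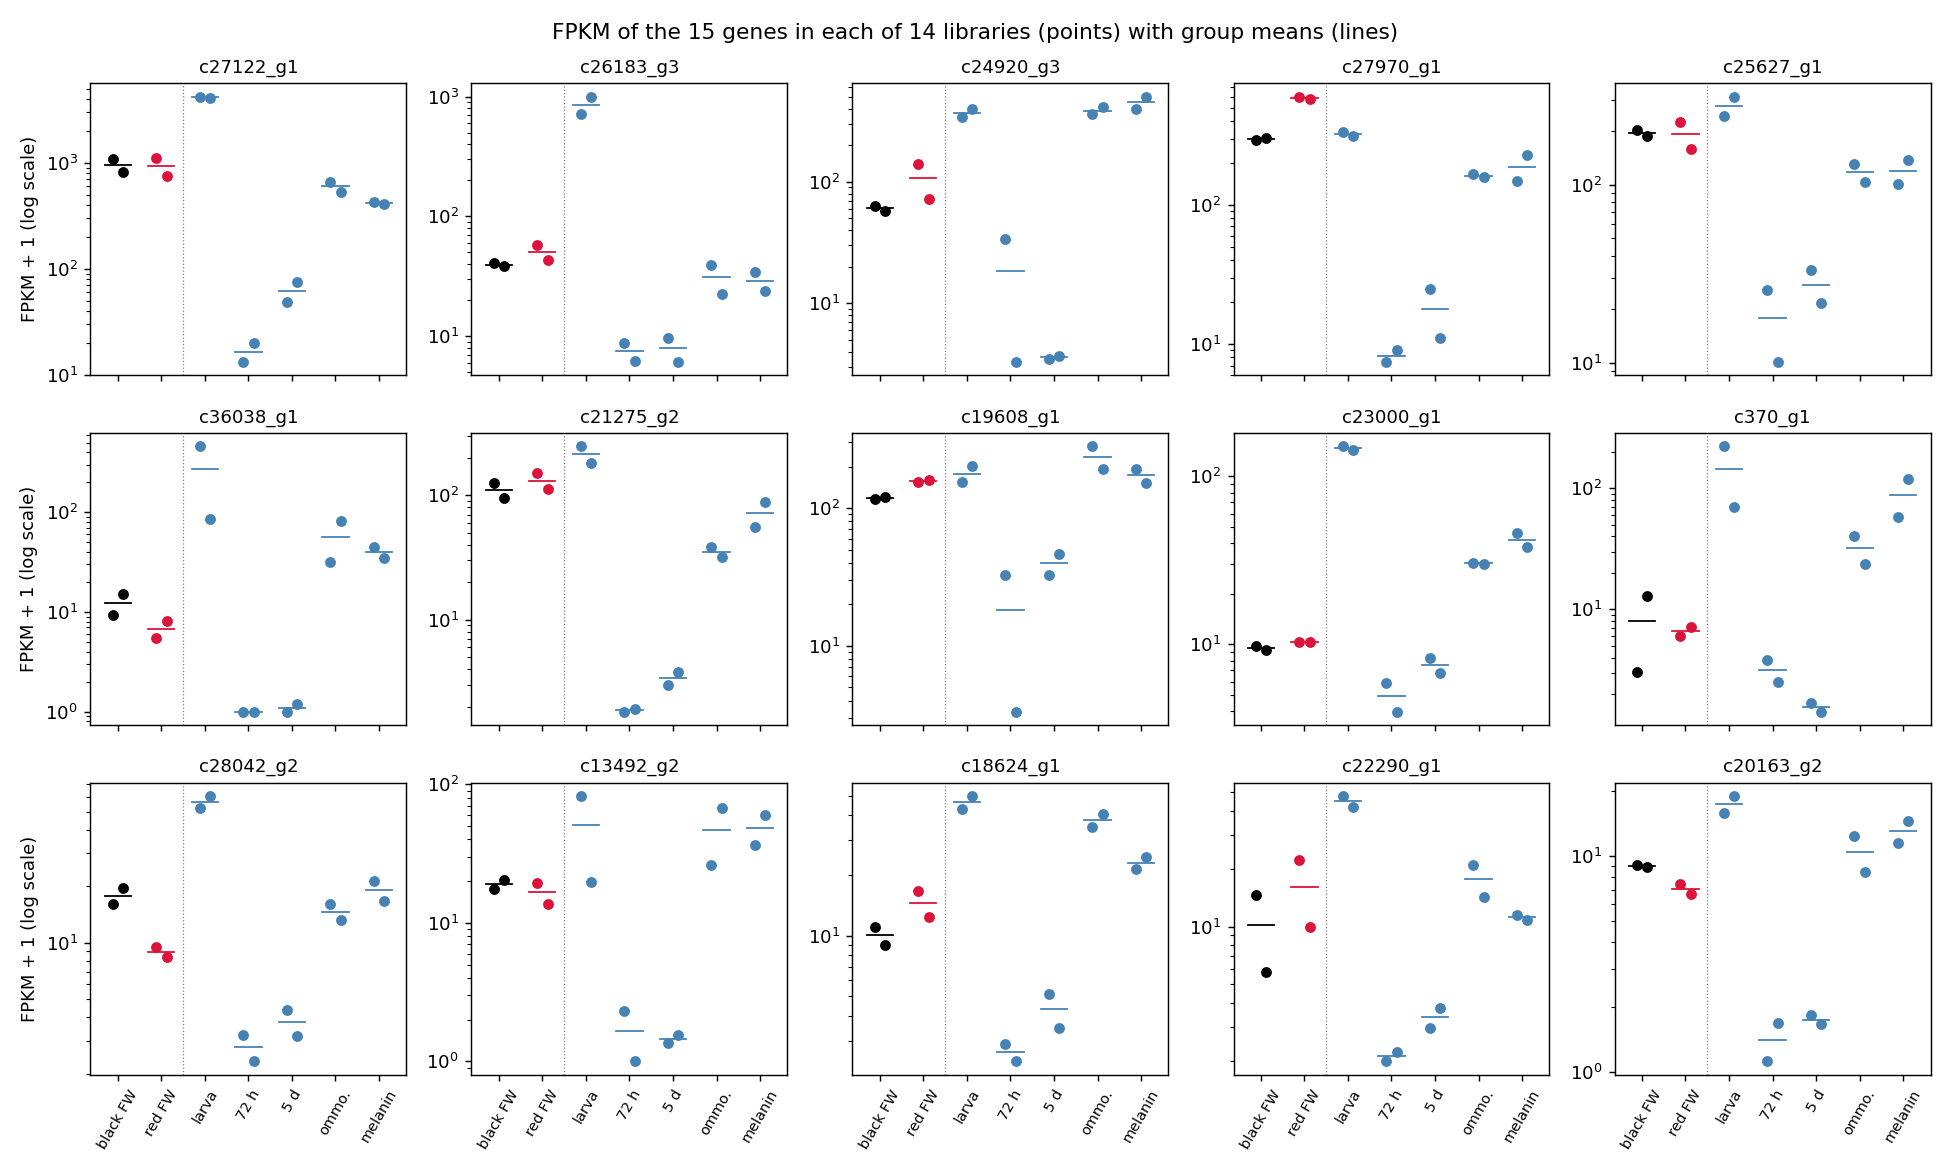
FPKM + 1 on a log axis for each of the 15 genes, with 1 point per library and a line at the mean of each group of 2 libraries; the forewing regions stand left of the dotted line and the 5 hind wing stages right of it. In every panel the 6 larval, ommochrome and melanin points lie above the 4 points of 72 h and 5 d, libraries whose values chose the genes. With the FPKM as deposited, 12 of the 15 genes have their highest mean in the larva, a count that the rule's condition on the larval mean favoured.

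The separation was also seen library by library. The same hind wing libraries had chosen the genes, so this describes them and adds no support. In each of the 15 genes the lowest larval, ommochrome or melanin library was above the highest 72 h or 5 d library, by 2.46 times in c26183_g3 and by 14.5 times in c13492_g2, and by more only in c36038_g1, which was near 0 at both low stages. The low stages were not silent in most of them. Group means at 72 h ranged from 0 to 17.6 FPKM with a median of 2.18, and those at 5 d from 0.095 to 60.7 with a median of 2.79. Summed over the 15 genes, FPKM came to 7297 and 6960 in the larva, 130.8 and 55.8 at 72 h, 167 and 176 at 5 d, 1876 and 1719 at the ommochrome stage, and 1592 and 1844 at the melanin stage. The largest part of the larval sum was c27122_g1.

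The size of the return set the genes apart from each other. Percentages of the larval mean use the FPKM as deposited and depend on the scaling. Median-of-ratios factors, by which values are divided, were 1.82 and 1.86 in the larva and 0.949 to 1.16 at the pigment stages. Under that scaling each percentage would be higher, so the classes below hold for the deposited FPKM only. In 3 genes both pigment stage means were at least 80% of the larval mean. Gene c24920_g3 was at 339 and 394 FPKM in the larval libraries, 32.9 and 2.30 at 72 h, 2.48 and 2.72 at 5 d, 357 and 408 at the ommochrome stage and 396 and 499 at the melanin stage. It had the highest mean of any group at the melanin stage, and its 72 h libraries were far apart. Relative to the larva it stood at 104% in ommochrome wings and 122% in melanin wings. Gene c19608_g1 was at 154 and 200.4 FPKM in the larval libraries, 31.8 and 2.32 at 72 h, 31.5 and 45.8 at 5 d, 279 and 192 at the ommochrome stage and 191 and 152 at the melanin stage. Its 72 h libraries were likewise far apart, with replicate 1 the higher in both, and its highest mean was that of the ommochrome stage, 236 ± 61.5 FPKM (SD, n = 2). Relative to the larva it stood at 133% in ommochrome wings and 96.7% in melanin wings. Gene c13492_g2 was at 80.9 and 18.8 FPKM in the larval libraries, 1.30 and 0 at 72 h, 0.36 and 0.54 at 5 d, 25.2 and 66.2 at the ommochrome stage and 35.5 and 58.6 at the melanin stage. Here the larval libraries differed by more than the larval and pigment stage means did, so that its level of 91.6% in ommochrome wings and 94.3% in melanin wings rested on a wide spread.

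In 8 genes both pigment stage means stayed under 50% of the larval mean. The extremes were 2 of the most abundant larval genes. Gene c26183_g3 was at 709.9 and 999.6 FPKM in the larval libraries, 7.77 and 5.15 at 72 h, 8.72 and 5.09 at 5 d, 38.7 and 21.4 at the ommochrome stage and 33.1 and 23.02 at the melanin stage. It returned to 3.51% in ommochrome wings and 3.28% in melanin wings, the lowest of the 15 genes. Gene c27122_g1 was at 4209 and 4078 FPKM in the larval libraries, 12.2 and 18.9 at 72 h, 47.9 and 73.5 at 5 d, 664 and 535 at the ommochrome stage and 427 and 409.5 at the melanin stage. This was the most abundant of the 15 genes in the larva, at 4143 ± 92.8 FPKM (SD, n = 2), and it stood at 14.5% in ommochrome wings and 10.1% in melanin wings. Gene c36038_g1 was at 458 and 84.5 FPKM in the larval libraries, 0 and 0 at 72 h, 0 and 0.19 at 5 d, 30.6 and 81.2 at the ommochrome stage and 43.9 and 33.8 at the melanin stage. It was listed at 0 in 3 of the 4 low stage libraries, so its ratio to the low stages rested on the 0.19 FPKM of 5 d replicate 2. Its larval libraries did not agree, and replicate 2, at 84.5 FPKM, was close to ommochrome replicate 2.

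The other 5 of these genes had close larval replicates. Gene c21275_g2 was at 247 and 182 FPKM in the larval libraries, 0.82 and 0.91 at 72 h, 1.98 and 2.81 at 5 d, 37.6 and 30.8 at the ommochrome stage and 54.7 and 88.1 at the melanin stage. Its melanin libraries both lay above its ommochrome libraries. Gene c23000_g1 was at 149.6 and 142 FPKM in the larval libraries, 4.91 and 2.97 at 72 h, 7.29 and 5.71 at 5 d, 29.5 and 29.1 at the ommochrome stage and 44.8 and 36.9 at the melanin stage. The same order of the pigment stages held in all 4 libraries. Gene c28042_g2 was at 51.5 and 59.4 FPKM in the larval libraries, 2.21 and 1.33 at 72 h, 3.38 and 2.20 at 5 d, 15.1 and 12.2 at the ommochrome stage and 20.4 and 15.7 at the melanin stage. It followed the same order without overlap. Gene c22290_g1 was at 46.8 and 40.9 FPKM in the larval libraries, 0.98 and 1.22 at 72 h, 1.96 and 2.75 at 5 d, 19.96 and 13.3 at the ommochrome stage and 10.4 and 9.87 at the melanin stage. This gene ran the other way, with both melanin libraries under both ommochrome libraries. Gene c25627_g1 was at 242 and 310.5 FPKM in the larval libraries, 24.6 and 9.15 at 72 h, 32.2 and 20.6 at 5 d, 129.9 and 103 at the ommochrome stage and 100.2 and 136 at the melanin stage. Its pigment stages overlapped.

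The remaining 4 genes lay between these classes. Gene c20163_g2 was at 14.8 and 17.97 FPKM in the larval libraries, 0.12 and 0.69 at 72 h, 0.83 and 0.67 at 5 d, 11.4 and 7.43 at the ommochrome stage and 10.5 and 13.6 at the melanin stage. It was the least abundant of the 15 in the larva, and it stood at 57.4% in ommochrome wings and 73.3% in melanin wings. Gene c18624_g1 was at 41.9 and 48.6 FPKM in the larval libraries, 1.88 and 1.37 at 72 h, 4.15 and 2.47 at 5 d, 33.7 and 39.4 at the ommochrome stage and 20.5 and 23.6 at the melanin stage. It was nearer its larval level at the ommochrome stage, with 80.8% in ommochrome wings and 48.7% in melanin wings. Gene c27970_g1 was at 332 and 314 FPKM in the larval libraries, 6.43 and 8.03 at 72 h, 23.8 and 10.1 at 5 d, 165 and 158 at the ommochrome stage and 147 and 227 at the melanin stage. Its pigment stage means were 49.9% in ommochrome wings and 57.8% in melanin wings. Gene c370_g1 was at 219.9 and 68.4 FPKM in the larval libraries, 2.84 and 1.52 at 72 h, 0.70 and 0.43 at 5 d, 39.1 and 22.6 at the ommochrome stage and 56.8 and 118 at the melanin stage. Its melanin replicate 2 lay within the range of its larval libraries, while melanin replicate 1 and both ommochrome libraries stayed below. Its means were 21.4% in ommochrome wings and 60.6% in melanin wings.

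**Figure D2:**
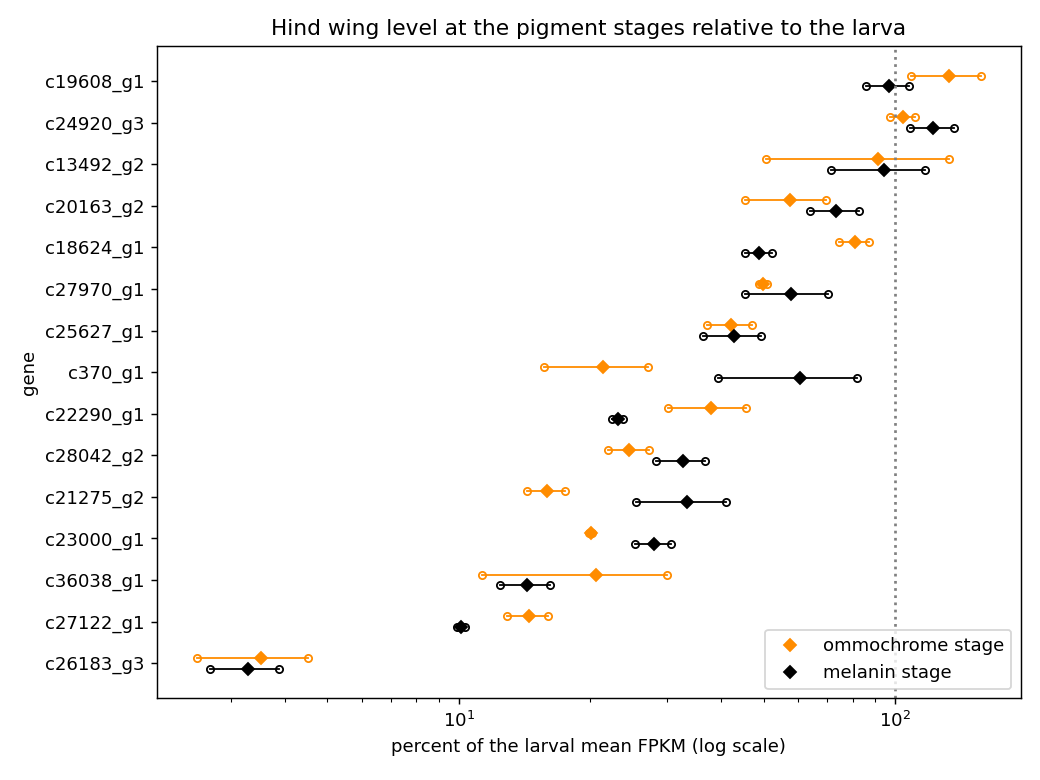
Ommochrome stage and melanin stage FPKM, as deposited, of each gene as a percentage of its larval mean, on a log axis; diamonds are means of 2 libraries, open circles the single libraries and the dotted line the larval mean. Ommochrome stage means run from 3.51% in c26183_g3 to 133.1% in c19608_g1 and melanin stage means from 3.28% in c26183_g3 to 122.2% in c24920_g3, and the medians over the 15 genes are 37.9% for the ommochrome and 42.7% for the melanin stage.

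Larval replicates disagreed in c13492_g2, c36038_g1 and c370_g1 alone of the 15 genes. On the scale of log2(FPKM + 1), larval replicate 1 exceeded replicate 2 by 2.05 in c13492_g2, by 2.42 in c36038_g1 and by 1.67 in c370_g1, while the gap in the other 12 genes was under 0.5 in either direction. Among the 10780 genes tested below, 389 (3.61%) had a larval gap of at least 1.5 in either direction. At the ommochrome stage replicate 2 was the higher one in c13492_g2, by 1.36, and in c36038_g1, by 1.38, whereas in c370_g1 replicate 1 was higher by 0.76. At 72 h 4 of the 15 genes had a gap of at least 1 between replicates, and 20.9% of all genes did. What made the larval libraries differ in these genes was not tested.

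The difference between the low stages was not part of the choice, although both had to be low. Values were tested as log2(FPKM + 1) with limma, in a single fit to all 14 libraries and to the 10780 genes that reached 1 FPKM in 2 or more of them, a filter that all 15 genes passed because the rule itself asked for more. A gene was called at a Benjamini-Hochberg adjusted p under 0.05 over all 10780 genes. The low values of both stages had helped to choose the genes, so counts and changes at this step describe them and support nothing further. From 72 h to 5 d, 1 of the 15 genes was called, against 21.7% of all genes tested. It was c27122_g1, at 47.9 and 73.5 FPKM at 5 d and 12.2 and 18.9 FPKM at 72 h, with no overlap (log2 change 1.90, SE 0.309, limma adjusted p = 0.00202). Both 5 d libraries lay above both 72 h libraries in 6 of the 15 genes and below them in 1. Over all genes this was not counted. At 5 d 12 of the 15 genes had a positive log2 change from 72 h, with a median of 0.62 over the 15 genes, against 39.5% positive and a median of -0.14 over all genes. The 188 other genes that met the rule's conditions at the ommochrome and melanin stages had 163 of 188 positive, a median of 0.99 and 39.9% called (73 higher and 2 lower). The 3 negative ones were c13492_g2 at -0.07, c24920_g3 at -1.56 and c370_g1 at -1.0. None of these 3 was called, and their libraries overlapped except in c370_g1. Gene c19608_g1 had a log2 change as large as that of c27122_g1, 1.90, but was not called (SE 0.787, limma adjusted p = 0.119), its 72 h libraries being 31.8 and 2.32 FPKM.

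The count at this step depended on the scaling of the libraries. With median-of-ratios factors, which moved the median of all genes to 0, it was 6 genes, all higher at 5 d (c18624_g1, c21275_g2, c23000_g1, c27122_g1, c27970_g1 and c28042_g2). Their log2 changes were then 0.65 in c28042_g2 to 2.16 in c27122_g1, with limma adjusted p from 0.00148 to 0.0479. Over all genes 22.2% were called under this scaling, 1388 higher and 1000 lower at 5 d, against 1015 higher and 1322 lower with the FPKM as deposited. In a fit to the 4 libraries of these stages alone 0 genes were called, of the 15 and of all genes, and c27122_g1 had a limma adjusted p of 0.145.

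Between the melanin and ommochrome stages of the hind wing 0 of the 15 genes was called by limma, against 0.25% of all genes tested. An unadjusted p of 0.05 was passed by 942 of all 10780 genes, 25 of the 188 other genes and 2 of the 15. These were c21275_g2, at 54.7 and 88.1 FPKM at the melanin and 37.6 and 30.8 FPKM at the ommochrome stage (log2 change 1.01, SE 0.294, limma adjusted p = 0.334), and c18624_g1, at 20.5 and 23.6 FPKM at the melanin and 33.7 and 39.4 FPKM at the ommochrome stage (log2 change -0.70, SE 0.261, limma adjusted p = 0.476). The libraries of both genes were without overlap between the stages. This did not set them apart, since others of the 15 did not overlap either, c22290_g1, c23000_g1, c27122_g1 and c28042_g2 among them. Over all genes it was not counted. The largest log2 change was that of c370_g1, at 1.43 (SE 0.706, limma adjusted p = 0.618), whose replicates were far apart. The median change of the 15 genes was 0.15, against 0.06 over all genes. It was -0.07 with equal FPKM totals, against -0.096 over all genes, and -0.08 with quantile normalization, against 0.005 over all genes.

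In the forewing, which the rule did not use, the 15 genes were all detected in all 4 libraries, at means of 7.02 to 949.6 FPKM in black and 5.58 to 936.7 FPKM in red regions. Most genes of the table were detected there, with 2249 to 2676 of 13876 at 0 in each forewing library. The lowest forewing library was above the highest 72 h or 5 d hind wing library in 14 of the 15 genes, against 17.2% of all genes tested and 150 of the 188 other genes high at the pigment stages (79.8%). Both the 15 and the 188 had been chosen to be low at 72 h and 5 d. The exception was c370_g1, where black replicate 1 had 2.05 FPKM and hind wing replicate 1 at 72 h had 2.84. Both forewing region means were at least 4 times both low stage means in 8 genes (53.3%). These were c13492_g2, c20163_g2, c21275_g2, c25627_g1, c26183_g3, c27122_g1, c27970_g1 and c36038_g1. Over all genes tested the share was 6.89%. In the 188 other genes high at the ommochrome and melanin stages, most of them low in the larva (median larval mean 1.46 FPKM), 122 (64.9%) did so. The difference between these shares was not tested, and the low side of each ratio was among the values that chose the genes.

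Forewing levels lay on both sides of the pigmenting hind wing. In 4 of the 15 genes (26.7%) all forewing libraries were above all ommochrome and melanin hind wing libraries, against 11.9% of all genes tested and 24.5% of the 188 other genes. Gene c27970_g1 was at 294 and 303 FPKM in the black and 598 and 578 FPKM in the red regions, against 165 and 158 FPKM in ommochrome and 147 and 227 FPKM in melanin hind wings. Its red regions were higher than any hind wing library, the larval ones included. Gene c21275_g2 was at 124 and 94.7 FPKM in the black and 151 and 111 FPKM in the red regions, against 37.6 and 30.8 FPKM in ommochrome and 54.7 and 88.1 FPKM in melanin hind wings. Gene c27122_g1 was at 1083 and 817 FPKM in the black and 1119 and 754 FPKM in the red regions, against 664 and 535 FPKM in ommochrome and 427 and 409.5 FPKM in melanin hind wings. Gene c25627_g1 was at 201 and 188 FPKM in the black and 225 and 157 FPKM in the red regions, against 129.9 and 103 FPKM in ommochrome and 100.2 and 136 FPKM in melanin hind wings. Of these 4 genes c21275_g2 left the smallest gap, with 94.7 FPKM in its lowest forewing and 88.1 FPKM in its highest pigment stage hind wing library.

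In 6 of the 15 genes (40%) all forewing libraries were below all ommochrome and melanin hind wing libraries, against 24.6% of all genes tested and 28.7% of the 188 other genes. Gene c370_g1 was at 2.05 and 11.98 FPKM in the black and 5.03 and 6.13 FPKM in the red regions, against 39.1 and 22.6 FPKM in ommochrome and 56.8 and 118 FPKM in melanin hind wings. Gene c36038_g1 was at 8.38 and 14.3 FPKM in the black and 4.48 and 7.04 FPKM in the red regions, against 30.6 and 81.2 FPKM in ommochrome and 43.9 and 33.8 FPKM in melanin hind wings. In both genes 1 black library was the highest of the forewing. Gene c24920_g3 was at 62.7 and 56.7 FPKM in the black and 139.8 and 71.1 FPKM in the red regions, against 357 and 408 FPKM in ommochrome and 396 and 499 FPKM in melanin hind wings. Gene c23000_g1 was at 8.75 and 8.22 FPKM in the black and 9.26 and 9.32 FPKM in the red regions, against 29.5 and 29.1 FPKM in ommochrome and 44.8 and 36.9 FPKM in melanin hind wings. The forewing libraries of c23000_g1 were close to each other and just above its highest low stage library, 7.29 FPKM at 5 d. Gene c13492_g2 was at 16.6 and 19.2 FPKM in the black and 18.5 and 12.6 FPKM in the red regions, against 25.2 and 66.2 FPKM in ommochrome and 35.5 and 58.6 FPKM in melanin hind wings. Gene c18624_g1 was at 10.1 and 8.02 FPKM in the black and 15.8 and 11.4 FPKM in the red regions, against 33.7 and 39.4 FPKM in ommochrome and 20.5 and 23.6 FPKM in melanin hind wings. In the remaining 5 genes the wings overlapped.

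Those 5 were c19608_g1, c20163_g2, c22290_g1, c26183_g3 and c28042_g2. Gene c19608_g1 was at 115 and 119.6 FPKM in the black and 155 and 159.9 FPKM in the red regions. Gene c20163_g2 was at 8.10 and 7.91 FPKM in the black and 6.46 and 5.70 FPKM in the red regions. Gene c22290_g1 was at 13.6 and 4.77 FPKM in the black and 21.3 and 8.94 FPKM in the red regions. In c22290_g1 replicate 1 was the higher in both regions, and the regions overlapped. Gene c26183_g3 was at 39.8 and 37.5 FPKM in the black and 56.9 and 42.5 FPKM in the red regions. Gene c28042_g2 was at 15.01 and 18.4 FPKM in the black and 8.45 and 7.37 FPKM in the red regions. Their mean over the 4 forewing libraries ran from 0.658 times the mean of the pigment stage hind wings in c20163_g2 to 1.52 times in c26183_g3.

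By limma, 6 of the 15 genes (40%) were called between the forewing regions and the ommochrome hind wing, against 14.7% of all genes tested. The hind wing side had helped to choose the genes, so these calls describe them and support nothing further. Fits between the wings counted the forewing libraries as independent. Same-numbered black and red libraries deviated together (correlation 0.43 across genes), so the SE between the wings may be too small. Of the 188 other genes high at the ommochrome and melanin stages, 44.7% were called, so the share of the 15 was no larger. Genes c21275_g2 (log2 change 1.77, SE 0.254, limma adjusted p = 0.002) and c27970_g1 (log2 change 1.37, SE 0.298, limma adjusted p = 0.0151) were higher in the forewing. Genes c36038_g1 (log2 change -2.52, SE 0.595, limma adjusted p = 0.0215), c370_g1 (log2 change -2.26, SE 0.611, limma adjusted p = 0.0363), c18624_g1 (log2 change -1.64, SE 0.226, limma adjusted p = 0.00156) and c23000_g1 (log2 change -1.62, SE 0.197, limma adjusted p = 0.000832) were lower. The median change was -0.57 in the 15 genes and -0.15 over all genes, and with equal FPKM totals the median of all genes moved to -0.42. The calls of c18624_g1, c21275_g2 and c23000_g1 were made in all 24 alternative fits. That of c27970_g1 was lost without either ommochrome library (limma adjusted p = 0.0997 and 0.121). That of c36038_g1 was lost without ommochrome replicate 2, red replicate 1 or black replicate 1 (limma adjusted p 0.0601 to 0.211). That of c370_g1 was lost without either ommochrome or red library or black replicate 1 (limma adjusted p 0.0731 to 0.237), and in a fit to the groups compared alone (adjusted p = 0.0546).

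Against the melanin hind wing, with the same forewing libraries, 7 of the 15 genes (46.7%) were called, against 21.2% of all genes tested and 48.9% of the 188 other genes. The melanin libraries too had helped to choose the genes. These calls, and how often alternative fits repeat them, therefore describe the genes and support nothing further. Genes c27970_g1 (log2 change 1.20, SE 0.298, limma adjusted p = 0.0211) and c27122_g1 (log2 change 1.15, SE 0.267, limma adjusted p = 0.0159) were higher in the forewing. The 5 lower ones were c370_g1 (log2 change -3.69, SE 0.611, limma adjusted p = 0.00359), c24920_g3 (log2 change -2.51, SE 0.701, limma adjusted p = 0.0318), c36038_g1 (log2 change -2.15, SE 0.595, limma adjusted p = 0.0308), c23000_g1 (log2 change -2.08, SE 0.197, limma adjusted p = 0.00018) and c18624_g1 (log2 change -0.94, SE 0.226, limma adjusted p = 0.0184). The median change was -0.59 in the 15 genes and -0.21 over all genes. With median-of-ratios factors, which moved the median of all genes to 0, 4 were higher and 3 lower. Under that scaling 23% of all genes were called, 1356 higher and 1122 lower, against 650 higher and 1640 lower with the FPKM as deposited. Genes c21275_g2 (log2 change 1.07) and c26183_g3 (log2 change 0.95) then joined the higher ones, and c24920_g3 and c36038_g1 were no longer called (limma adjusted p = 0.0507 and 0.0569).

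The calls of c23000_g1 and c370_g1 against the melanin hind wing were made in all 24 alternative fits. The others depended on single libraries, among them melanin replicate 1, the library with the most genes at 0. That of c18624_g1 was lost without either melanin library, red replicate 2 or black replicate 2 (limma adjusted p 0.0511 to 0.0892). That of c24920_g3 was lost without either melanin or black library or red replicate 2 (limma adjusted p 0.07 to 0.162). That of c27122_g1 was lost without either melanin library or black replicate 1 (limma adjusted p 0.0508 to 0.111). That of c27970_g1 was lost without melanin replicate 1, red replicate 1 or either black library (limma adjusted p 0.0508 to 0.224). The call of c36038_g1 was lost without any 1 of the 6 libraries compared (limma adjusted p 0.0544 to 0.218), with a pseudocount of 5 (limma adjusted p = 0.0561) and with quantile normalization (limma adjusted p = 0.073). In all of these fits the direction of the change stayed the same.

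**Figure D3:**
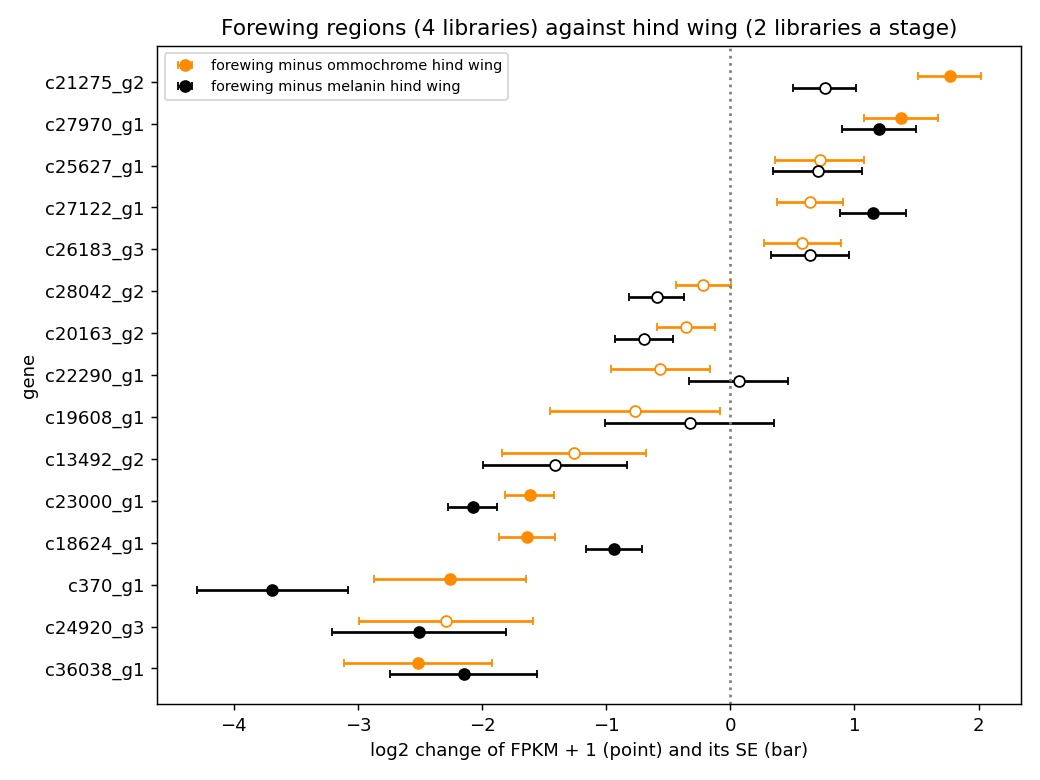
Log2 change of FPKM + 1 between the forewing regions (4 libraries) and the ommochrome or the melanin hind wing (2 libraries each) for each of the 15 genes; bars are the SE of the limma fit, filled points are called at an adjusted p under 0.05 and open points are not. Changes against the melanin stage run from -3.69 in c370_g1 to 1.20 in c27970_g1, and c18624_g1, c23000_g1, c36038_g1, c370_g1 and c27970_g1 are filled in both comparisons.

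The black and red forewing regions gave the 1 comparison whose log2 changes share no library with the choice of the genes. Its test is not free of that choice. The spread of each gene came from all 14 libraries, and the 10 hind wing libraries among them had chosen the genes. For c19608_g1 the SE was 0.787, although replicates were close within both regions, and its 72 h libraries were 31.8 and 2.32 FPKM. When only the black and red libraries were fitted, limma called 0 of all 10780 genes. In the fit to all 14 libraries limma called 0 of the 15 genes, against 0.751% of all genes tested. An unadjusted p of 0.05 was passed by 447 of all 10780 genes, 40 of the 188 other genes and 2 of the 15. Gene c28042_g2 was at 15.01 and 18.4 FPKM in black and 8.45 and 7.37 FPKM in red regions (log2 change 0.99, SE 0.258, limma adjusted p = 0.251). Gene c27970_g1 was at 294 and 303 FPKM in black and 598 and 578 FPKM in red regions (log2 change -0.98, SE 0.344, limma adjusted p = 0.75). In both genes the regions were without overlap and the replicates close. Gene c28042_g2 was called with median-of-ratios factors (log2 change 1.20, limma adjusted p = 0.0282, 0.853% of all genes called) and with quantile normalization (log2 change 1.13, limma adjusted p = 0.0437, 0.807% of all genes called), and in none of the other 22 fits with other settings or a library left out. Black libraries were both above both red ones in 3 of the 15 genes (c20163_g2, c28042_g2 and c36038_g1) and both below them in 6 (c18624_g1, c19608_g1, c23000_g1, c24920_g3, c26183_g3 and c27970_g1). Over all genes tested these shares were 7.01% above and 35.2% below, and in the 188 other genes 14.4% above and 44.7% below. Same-numbered black and red libraries deviated together, with a correlation of 0.43 across genes, although the labels do not say that they came from the same animals. Gene c22290_g1 overlapped between the regions, at 13.6 and 4.77 FPKM in black and 21.3 and 8.94 FPKM in red, but was lower in black within both numbers, as was c21275_g2. A fit with the replicate number as a block within the forewings was added after this was seen. In it limma called 0 of the 15 genes and 83 of all 10780. An unadjusted p of 0.05 was passed by 3 of the 15, a count not made over all genes. The third was c22290_g1 (log2 change -0.70, SE 0.244, limma adjusted p = 0.771). The median change was -0.12 in the 15 genes and -0.15 over all genes, and with median-of-ratios factors it was 0.08 in the 15 genes and 0 over all. Of the 188 other genes high at the ommochrome and melanin stages, 9.04% were called between the regions, a difference from the 15 that was not tested.

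Membership itself depended on how the libraries were scaled. The FPKM as deposited gave 15 genes, whereas median-of-ratios factors, which were 1.82 and 1.86 for the larval libraries and 0.694 to 1.16 for all others, left 6 genes, all among the 15 (c20163_g2, c21275_g2, c27122_g1, c27970_g1, c36038_g1 and c370_g1). Equal FPKM totals also gave 15, of which 12 were shared. Each replicate number taken alone gave 23 genes (replicate 1, 12 shared) and 28 genes (replicate 2, 11 shared), and 9 of the 15 met the rule in both. The genes c21275_g2, c27122_g1, c27970_g1 and c36038_g1 met it in all 20 alternative forms. Gene c19608_g1 met it in 10 of them and in neither replicate number alone. Without 5 d replicate 1 the rule took in 25 genes.

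**Figure D4:**
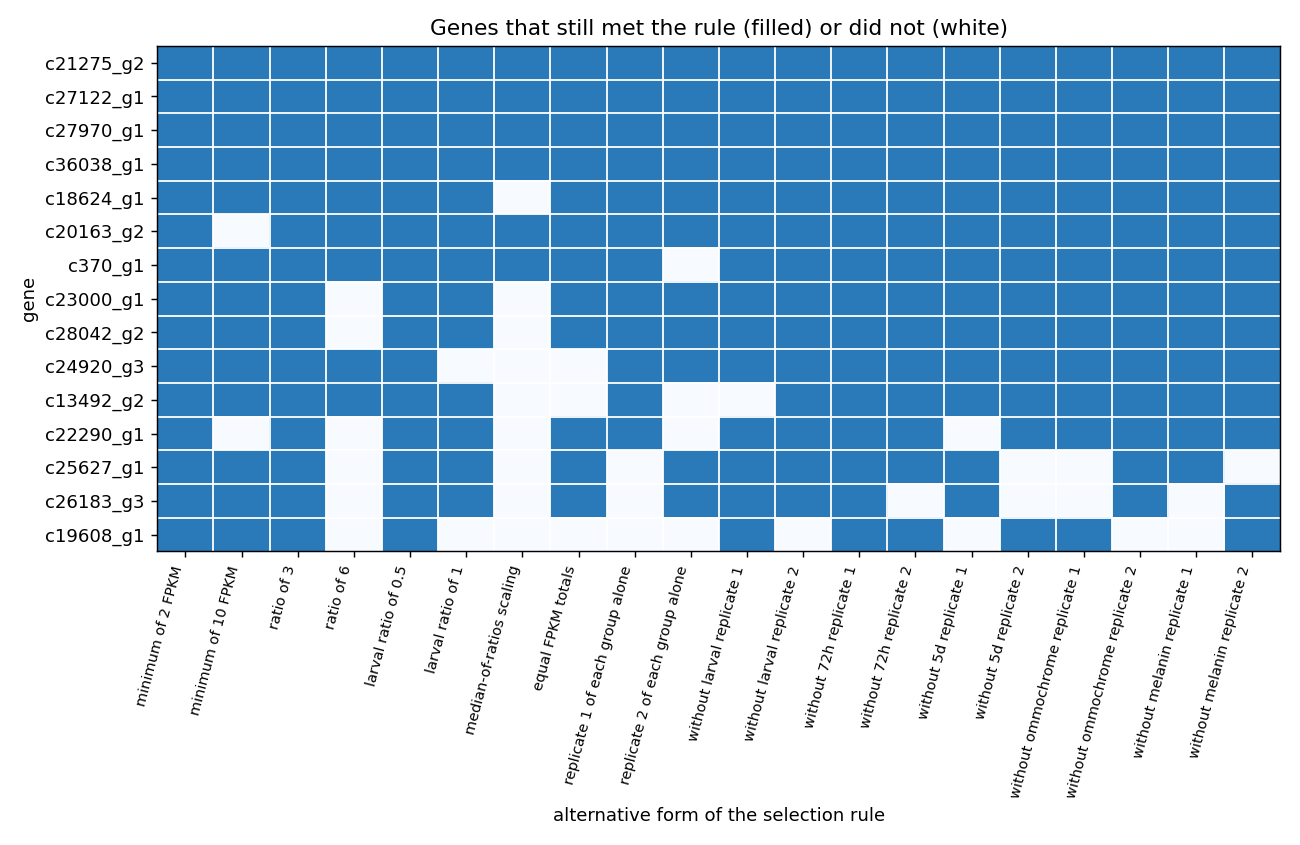
Each of the 15 genes (rows) under 20 alternative forms of the rule (columns: other thresholds, other scaling, 1 replicate number alone, 1 hind wing library left out); filled cells met the rule and white cells did not. The top 4 genes are filled throughout, and the column of median-of-ratios scaling has 6 filled cells.

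The sum of FPKM per library ranged from 482546 to 833658, both larval libraries being the highest. The depth of the libraries is unknown, since the table holds no counts and an estimate from the steps between low values was not reliable on simulated data. In melanin hind wing replicate 1 3641 genes were at 0, and in each other library 1931 to 2707. Its values for the 15 genes began at 10.4 FPKM.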

How the data were processed

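The authors deposited 1 table of FPKM, with a column per library and 2 decimals. The submitters' processing notes name Bowtie, with no version or role known here, and the series title speaks of a de novo transcriptome. The assembler, the program behind the FPKM and later scaling are not given in the sources used. An FPKM is a level relative to its own library. Each column was matched to a sample by wing, stage or region and replicate number.

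The rule was applied with Python 3.11.15, NumPy 2.4.6 and pandas 2.3.3, and figures were drawn with matplotlib 3.10.9. The 10780 genes reaching 1 FPKM in 2 or more libraries were tested as log2(FPKM + 1) with limma 3.58.1 in R 4.3.3. The model had 7 group means over 14 libraries, no covariate, a spread prior that followed mean expression, 7 residual and 2.88 prior degrees of freedom. The fit was tested on simulated data. An estimate of depth from low values was too often wrong on simulated data and is not used. With a pseudocount of 1, log2 changes of low genes come out too small. Tests were two-sided and adjusted by Benjamini-Hochberg over all genes. The members and comparisons were chosen with earlier results of these data known. The rule for named genes took the 3 members with the highest larval mean, the 3 largest and 3 smallest ratios to the low stages and of forewing to hind wing, the genes next to each threshold, members called between black and red regions, and the member with the largest called change in each direction elsewhere. Members c18624_g1, c23000_g1 and c28042_g2 fell outside it and were named after their values were seen, so that all 15 appear. Alternatives varied the pseudocount, filter, scaling, spread prior, replicate block, libraries fitted and thresholds.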

Additional observations from a re-analysis of the deposited data

How the results depend on the processing

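Counts of called genes among the 15 that moved by over 1.5 times are given by setting. Between black and red regions 1 gene was called with median-of-ratios scaling and 1 with quantile normalization, against 0. From 72 h to 5 d the count was 3 with a pseudocount of 0.1 (2352 of all genes called) and 6 with median-of-ratios scaling (2388). The same count was 4 with quantile normalization (2593), 4 with equal FPKM totals (2215) and 0 in a fit to the groups compared alone (0), against 1 (2337). With a library left out it ranged from 1 to 4 (4 without 72 h replicate 1, 3 without 5 d replicate 2, and 2 without 72 h replicate 2 or either melanin library). With a library left out, forewing against ommochrome hind wing gave 3 to 8 (3 without ommochrome replicate 2), against 6, and forewing against melanin hind wing gave 2 to 8, against 7. That count was 9 with equal FPKM totals (2872 of all genes called) and 9 in a fit to the groups compared alone (2166). It was 2 without melanin replicate 1, 3 without either black library, and 4 without melanin replicate 2 or red replicate 2. Melanin against ommochrome hind wing gave 0 throughout. The number of genes that met the rule was 37 at a ratio of 3, 9 at a ratio of 6, 6 with median-of-ratios scaling, 23 and 28 with replicate 1 or 2 alone, and 13 to 25 with a library left out (25 without 5 d replicate 1), against 15. Forewing regions were at least 2 times both low stages in 14 of the 15 genes, against 8 at 4 times. No count over all genes was made at 2 times. With a library left out, 8 or 9 genes passed 4 times. The cause of these changes was not tested. With a library left out, no count over all genes was made. Whether such a shift concerns the 15 genes or all genes cannot be told from these counts. With the replicate number as a block over all libraries 6 and 7 of the 15 genes were called between the wings, as without it, and no call among them changed. Of all genes 1563 and 2251 were then called, against 1586 and 2290. That block assumes the same shift in every group, so it does not address a deviation shared by the forewing libraries alone. The labels give no shared origin for same-numbered libraries, and the deviations of same-numbered libraries correlated at over 0.1 in 1 of 21 pairs of groups (-0.116 to 0.431), that of the black and red forewing regions. A replicate block within the forewings alone, added after this was seen, left 0 of the 15 genes called between the regions, and 83 of all 10780. With 2 libraries per group, a group with a library left out keeps a lone library that is assumed to vary like the others.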
